A study of Mus musculus with 28 samples.

Results

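The molecular motors of the axon were followed through the axonal translatome of mouse retinal ganglion cells (RGCs). The motor genes were those whose symbols begin with Kif, Klc, Dync, Dynl or Dctn, followed by a digit for the kinesin (Kif), kinesin light chain (Klc) and dynactin (Dctn) genes. By this rule 64 of the 23995 genes listed were members. Of these, 19 belong to kinesin families that carry cargo toward the axon tip (3 kinesin-1 heavy chains, 4 kinesin light chains, 4 kinesin-2, 6 kinesin-3 and 2 Kif21 genes), and 20 to dynein-1 and dynactin, which carry it back (5 dynein-1 chains, 9 dynein light chains and 6 dynactin subunits). The other members were 11 mitotic kinesins, 6 ciliary or hedgehog kinesins, 2 kinesin-13 genes, 2 dynein-2 genes, 3 kinesins of other families and 1 pseudogene, Kif4-ps.

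The libraries came from axon-TRAP (translating ribosome affinity purification). C57BL/6 mice with the RiboTag allele, which replaces the ribosomal protein Rpl22 with an HA-tagged form once Cre has acted, were crossed with Pax6-alpha-Cre mice, in which Cre is active for a time in progenitors of the peripheral retina. HA-tagged ribosomes were then precipitated from superior colliculus (SC), where RGC axons end, and from retina, and the mRNA bound to them was amplified by PCR and sequenced. The sources were SC of Cre-positive mice, SC of Cre-negative mice and retina, which with 4 stages made 12 groups of 2 libraries each, and every animal carried the RiboTag allele. The stages were embryonic (E17.5), newborn (P0.5), about a week after birth (P7.5) and adult, written as in the labels. A further 4 adult libraries, 1 per condition, came from Cre-positive SC and retina with or without ribosome run-off, in which a lysate was incubated so that moving ribosomes left their mRNAs before the precipitation. Each sample pooled the SCs or eyes of several mice, the tag reaches all retinal cell types that descend from those progenitors, and Cre-negative littermates give the background of the precipitation. The study's text calls the SC replicates biological ones, while the labels do not say whether the 2 libraries of a group came from separate litters, so the p-values measure the spread between these samples only.

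Kinesins walk toward the plus ends of microtubules, which point to the tip of the axon, and cytoplasmic dynein walks the other way. Kinesin-1 is built of Kif5 heavy chains and Klc light chains and carries mitochondria and vesicles, and Kif1a and Kif1b of the kinesin-3 family carry synaptic vesicle precursors and dense-core vesicles. Dynein-1 has a heavy chain with the motor domain, intermediate and light intermediate chains that bind cargo, and small light chains, and it needs dynactin to move far along a microtubule, which is how signals from the axon terminal reach the cell body.

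Sequence decides which members can be measured one by one, so the light chain genes with near-identical copies are shown first, as the reference sequence of GRCm38 (mm10) with the GENCODE annotation. The Dynlt1 light chain has 4 protein-coding copies in a row on chromosome 17, each with 339 coding bases. Dynlt1a, Dynlt1c and Dynlt1f have the same coding sequence, and Dynlt1b differs from them at 1 base, which is 99.7% identity. The first 60 coding bases, from the start codon on, hold that base, in capitals, and cross an intron in the genome. They lie at chr17:6314926-6317400 (minus strand) in Dynlt1a, chr17:6430212-6431912 (plus strand) in Dynlt1b, chr17:6601810-6603519 (plus strand) in Dynlt1c and chr17:6653320-6655800 (minus strand) in Dynlt1f.
Dynlt1a, Dynlt1c and Dynlt1f: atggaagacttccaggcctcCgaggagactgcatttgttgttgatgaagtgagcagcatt
Dynlt1b: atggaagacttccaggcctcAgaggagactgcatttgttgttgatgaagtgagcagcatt

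Of all the words of 50 bases in their transcripts, 59.4% in Dynlt1a, 83.2% in Dynlt1b, 93.7% in Dynlt1c and 93.1% in Dynlt1f also occur in transcripts of other genes, in the main the other copies. The next highest shares among the 64 members were 3.03% for Dynll1 and 2.68% for Kif11. How reads were divided among the Dynlt1 copies is therefore uncertain, and their values are given with that limit.

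The other pair of light chains, Dynll1 and Dynll2, can be told apart by reads. Their coding sequences have 267 bases each and differ at 50 of them, which is 81.3% identity. Coding bases 26 to 85, at chr5:115300560-115300619 in Dynll1 and chr11:87983919-87983978 in Dynll2 (minus strand in both, within 1 exon), are shown with the 15 bases that differ in capitals.
Dynll1: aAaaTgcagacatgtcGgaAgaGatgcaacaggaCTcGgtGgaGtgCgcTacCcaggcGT
Dynll2: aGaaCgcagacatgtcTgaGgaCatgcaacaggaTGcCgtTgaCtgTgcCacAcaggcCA

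Levels are given as FPKM (fragments per kilobase of transcript, scaled to the size of the library), so levels of different genes are on a scale per length. No read totals come with these values, and from the spacing of the low values each library was estimated to hold 496295 to 13886500 fragments, the fewest in replicate 1 of E17.5 Cre-negative SC. Between 1162 and 8769 genes were above 0 FPKM in a library, with 1162 in replicate 2 of adult Cre-negative SC, which stood apart. At P0.5, 3866 and 3788 genes reached 1 FPKM in the Cre-positive SC libraries, and 1586 and 1646 in the Cre-negative ones. Many genes were at exactly 0, widely used ones among them, so a 0 is described as a gene listed at 0. Of 8 RGC markers, only 3 and 4 were above 0 in the P0.5 Cre-positive SC libraries, where Rbpms, Pou4f3, Sncg and Thy1 were at 0 in both, with a summed level of 253 and 92.7 FPKM, and 3 in each P0.5 Cre-negative library, with 754 and 197 FPKM. In retina 3 to 7 of the 8 were above 0. These are bulk samples, in which fewer cells or axons of a type and less RNA in each cannot be told apart.

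The motor genes were unevenly detected. Of the 64 members, 55 had an FPKM above 0 somewhere among the 24 libraries, and 9 were at 0 in every one. A further 10 were above 0 but never reached 1 FPKM, 11 reached it in 1 library, 24 in 2 to 12 and 10 in more than 12. The 3 members at or above 1 FPKM in all 24 libraries, as 232 of all genes were, are 1 subunit each of the retrograde machinery (Dctn4, a dynactin subunit, and Dync1li1, a dynein light intermediate chain) and the kinesin-3 motor Kif1b. Together the 64 members took 0.167 to 1.15% of the summed FPKM of a library.

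**Figure D1:**
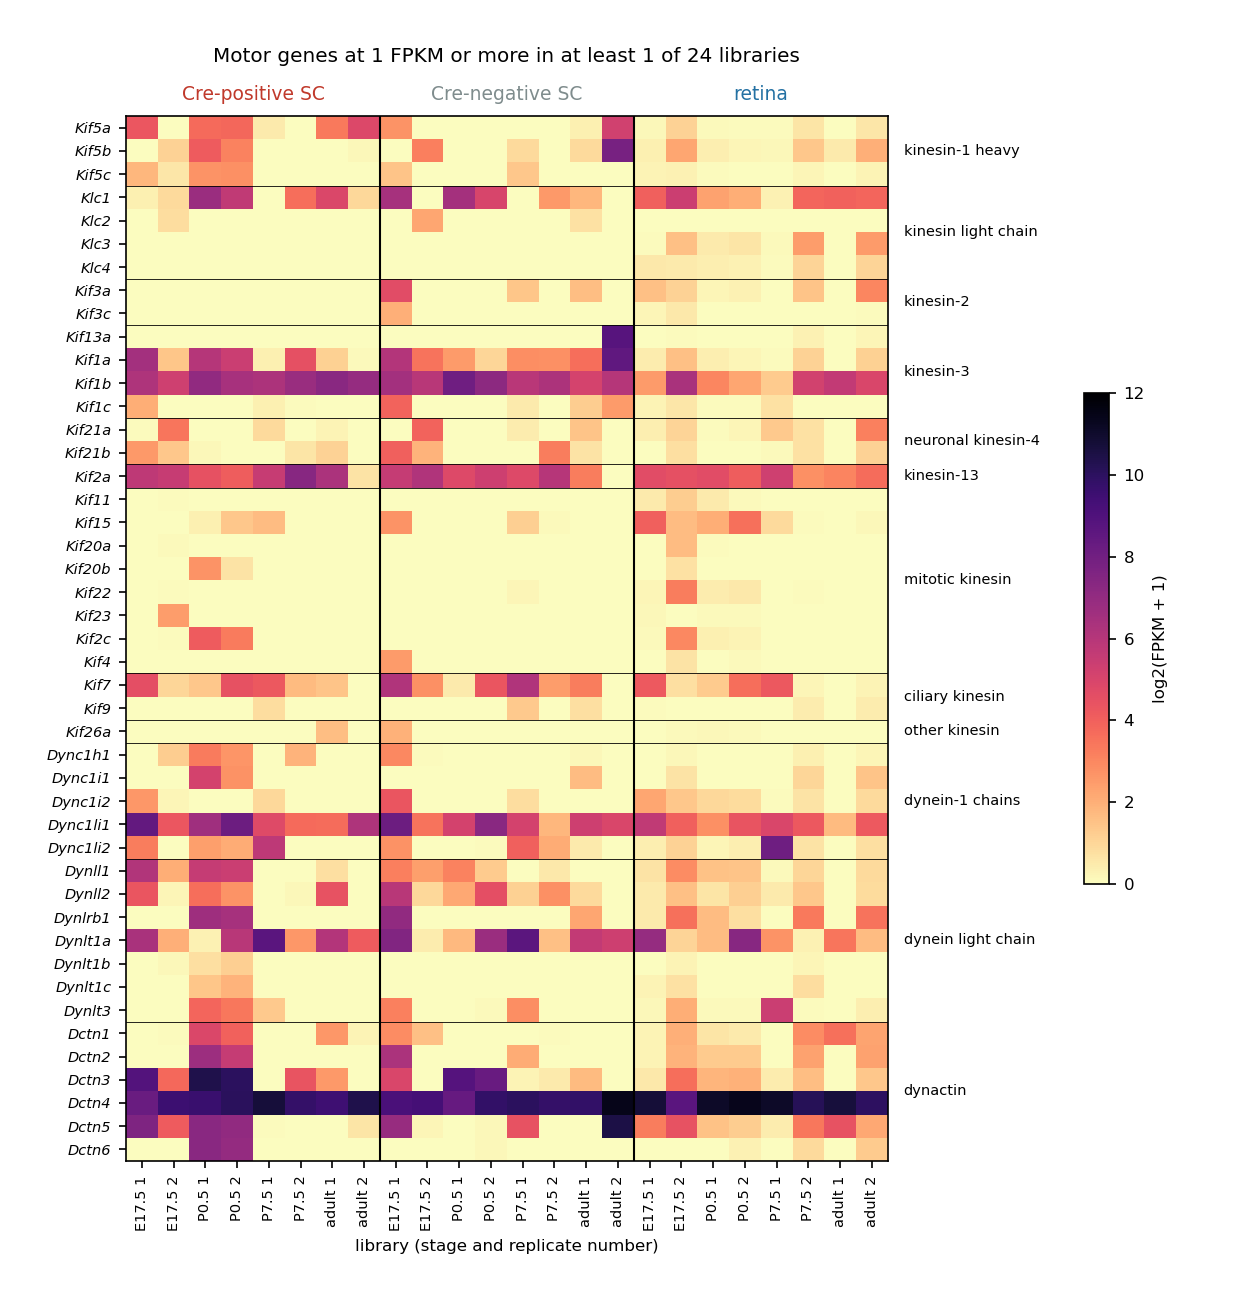
Level of each motor gene that reached 1 FPKM in at least 1 library (rows, grouped by family) in each of the 24 libraries (columns, grouped by source and stage), as log2(FPKM + 1) in colour. Dctn4, Dync1li1 and Kif1b are filled in every column, and the 2 P0.5 Cre-positive SC columns hold the most filled rows of dynein and dynactin genes among the SC columns of P0.5, P7.5 and adult.

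Dctn4, a subunit of the pointed end of dynactin, was the most abundant motor mRNA in most libraries. Its level ran from 296 to 2762 FPKM over the 24 libraries, with a median of 945, which placed it at rank 20 to 175 among all genes of a library and gave it 16.9 to 97.2% of the members' summed FPKM. At P0.5 it was at 786 and 1074 FPKM in Cre-positive SC, 317 and 892 in Cre-negative SC and 2196 and 2639.6 in retina. The retina libraries were the highest of the 6, and the SC groups overlapped. The difference between Cre-positive and Cre-negative SC, 0.79 ± 0.80 (SE) on the log2(FPKM + 1) scale, was within the spread (limma, adjusted p = 0.637).

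Of the other dynactin subunits, Dctn1, Dctn2 and Dctn6 were called higher in the SC precipitate of P0.5 Cre-positive mice than in that of their Cre-negative littermates, in which they were at or near 0. Dctn1 encodes p150Glued, the subunit that grips the microtubule and dynein, and was at 28.5 and 14.8 FPKM in the P0.5 Cre-positive libraries, at 0 and 0 in the Cre-negative ones and at 0.569 and 0.419 in retina. Dctn2, which encodes dynamitin of the dynactin shoulder, was at 105 and 45.6, 0 and 0 and 1.45 and 1.41 FPKM in the same order. Dctn6, a pointed-end subunit, was at 153 and 123, 0 and 0.108 and 0 and 0.227 FPKM. For these genes both Cre-positive libraries lay far above both Cre-negative and both retina libraries. The difference of Cre-positive minus Cre-negative SC at P0.5 passed the threshold, at an adjusted p of 0.05, for all 3: 4.43 ± 0.80 (SE) for Dctn1 (limma, adjusted p = 0.00138), 6.13 ± 1.58 for Dctn2 (adjusted p = 0.0123) and 7.04 ± 0.48 for Dctn6 (adjusted p = 8.50e-06), on the log2(FPKM + 1) scale. Where the other group is listed at 0, such a difference depends on the added 1 FPKM and is not a fold. With 1 of the P0.5 SC libraries left out, Dctn2 kept its call in 1 fit and missed the threshold in 3. Dctn1 kept its call in 3 such fits and missed the threshold in 1. The groups of Dctn3 and Dctn5 did not overlap either, but their libraries spread more over the other stages, and the test, which shares 1 estimate of the spread for a gene over all 16 SC libraries, was not passed. Dctn3, the p24 subunit of the shoulder, was at 1318 and 1032 FPKM in Cre-positive SC, 453 and 311 in Cre-negative SC and 2.66 and 2.83 in retina, with a difference of 1.63 ± 2.10 between the SC groups (adjusted p = 0.79). Dctn5, the partner of Dctn6 at the pointed end, was at 153 and 131, 0 and 0.125 and 1.86 and 1.34 FPKM, with a difference of 7.07 ± 3.09 (adjusted p = 0.116). In all, 3 of the 6 dynactin genes were called higher and none lower, where 28.1% of all 5983 genes tested were called higher.

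Dynein-1 chains gave a mixed picture. Dync1h1, the heavy chain that holds the motor domain, was at 8.86 and 5.22 FPKM in P0.5 Cre-positive SC and at 0 in both Cre-negative libraries, and retina had 0.0197 and 0 FPKM. Dync1i1, the intermediate chain found in neurons, was at 33.6 and 5.74 FPKM in Cre-positive SC and at 0 in the 2 Cre-negative and the 2 retina libraries of P0.5. Both were called higher in Cre-positive SC, by 2.97 ± 0.93 for Dync1h1 (limma, adjusted p = 0.0312) and 3.93 ± 0.72 for Dync1i1 (adjusted p = 0.00161), and Dync1h1 missed the threshold without the filter on low values and with any 1 of the 4 libraries left out. Dync1i2, the intermediate chain used in most cell types, was at 0 in all 4 SC libraries of P0.5 and at 0.944 and 0.816 FPKM in retina. The light intermediate chains link dynein to cargo adaptors. Dync1li1 was at 97.7 and 279 FPKM in Cre-positive SC, 34.3 and 153 in Cre-negative SC and 5.95 and 20 in retina, so that the SC groups overlapped (adjusted p = 0.911). Dync1li2 was at 4.32 and 3.28, 0 and 0.0377 and 0.157 and 0.308 FPKM, with no overlap of the SC groups, and did not pass (difference 2.23 ± 1.73, adjusted p = 0.45). Thus 2 of the 5 dynein-1 chains were called higher, beside the same 28.1% of all genes.

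Of the 9 dynein light chain genes, 6 could be tested and 3 were called higher in P0.5 Cre-positive SC, again beside 28.1% of all genes. Dynlrb1, a roadblock light chain, was at 101 and 85.8 FPKM in Cre-positive SC, at 0 in both Cre-negative libraries and at 2.21 and 0.697 in retina (difference 6.56 ± 1.72, limma, adjusted p = 0.0136). Dynlt3, a Tctex-type light chain, was at 13.8 and 9.69, 0 and 0.0853 and 0.0708 and 0.0921 FPKM (difference 3.59 ± 1.08, adjusted p = 0.0267). Without any 1 of the 4 libraries Dynlrb1 and Dynlt3 both missed the threshold, and Dynlt3 also with a pseudocount of 0.1. Dynlt1c was at 1.69 and 2.7 FPKM in Cre-positive SC and at 0 in the other 4 P0.5 libraries (difference 1.66 ± 0.22, adjusted p = 1.56e-04). The Dynlt1c value carries the uncertainty of the copies shown above, since Dynlt1a, with the same coding sequence, was at 0.218 and 59.7 FPKM in Cre-positive and 2.42 and 107 in Cre-negative SC and was not called (adjusted p = 1). Dynll1, a light chain shared by dynein and many other complexes, was at 45.6 and 41.3 FPKM in Cre-positive SC, 7.78 and 1.46 in Cre-negative SC and 1.9 and 1.83 in retina. Its groups did not overlap, and the difference of 3.25 ± 1.21 missed the threshold (adjusted p = 0.0652). Its relative Dynll2 was at 11.4 and 5.58 FPKM in Cre-positive and 3.6 and 22.5 in Cre-negative SC, with overlapping groups (adjusted p = 1).

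**Figure D2:**
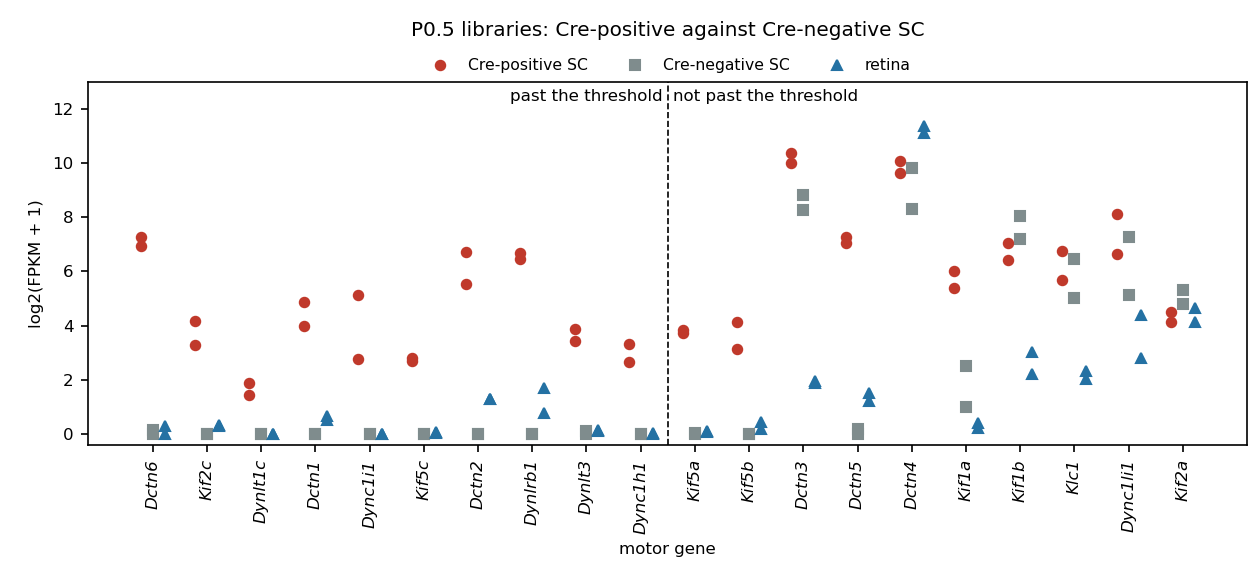
Levels of the 10 motor genes called higher in P0.5 Cre-positive than Cre-negative SC and of other chains described in the text, as log2(FPKM + 1) on the vertical axis, with 1 point for each P0.5 library of Cre-positive SC (circles), Cre-negative SC (squares) and retina (triangles). Both Cre-positive points of Dctn6 (153 and 123 FPKM) stand clear of the other 4, whereas the points of Dctn4 and Dync1li1 overlap between the SC groups.

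Of the 19 genes of the anterograde motors, 10 were tested and 1 was called higher, beside 28.1% of all genes. The 3 Kif5 heavy chains of kinesin-1 were all higher in both P0.5 Cre-positive libraries than in either Cre-negative one. Kif5a was at 12.2 and 13.1 FPKM in Cre-positive and 0 and 0.0137 in Cre-negative SC. Kif5b was at 16.5 and 7.78 against 0 in both Cre-negative libraries, and Kif5c was at 5.45 and 5.95 against 0 in both. In retina the 3 genes lay between 0.0276 and 0.335 FPKM at P0.5. The difference between the SC groups passed the threshold for Kif5c (2.74 ± 0.64, limma, adjusted p = 0.00707) and missed it for Kif5a (3.76 ± 1.70, adjusted p = 0.129) and Kif5b (3.63 ± 1.80, adjusted p = 0.169). With 1 of the P0.5 SC libraries left out, Kif5c kept its call in 1 fit and missed the threshold in 3. At other stages Kif5a was also high in both adult Cre-positive libraries (9.25 and 27.5 FPKM), but adult Cre-negative SC overlapped, at 0.291 and 36.4 FPKM. Kif5b was high in replicate 2 of adult Cre-negative SC (219.7 FPKM). Klc1, the kinesin light chain most used in neurons, did not differ beyond the spread, with 108 and 50.1 FPKM in Cre-positive SC, 87.9 and 31.1 in Cre-negative SC and 3.97 and 3.11 in retina (adjusted p = 1). Klc2, Klc3 and Klc4 were at 0 in all 4 SC libraries of P0.5.

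Among the kinesin-3 motors, Kif1a and Kif1b behaved differently. Kif1a was at 63.6 and 41 FPKM in P0.5 Cre-positive SC, 4.72 and 0.99 in Cre-negative SC and 0.313 and 0.171 in retina, without overlap, and missed the threshold (difference 3.95 ± 2.08, limma, adjusted p = 0.2). Kif1b was at 132 and 84.7 FPKM in Cre-positive SC and higher, at 262 and 146, in Cre-negative SC, with a difference of -0.88 ± 0.79 that was also within the spread (adjusted p = 0.556). Retina had 7.07 and 3.61 FPKM of Kif1b. Kif1b mRNA was in the precipitate without Cre at every stage, at 32.9 to 262 FPKM. Kif3a of kinesin-2, a motor of cilia and axons, and Kif1c were at 0 in all 4 SC libraries of P0.5, and the neuronal kinesins Kif21a and Kif21b reached at most 0.131 FPKM there. Kif2a, a kinesin-13 that trims microtubule ends rather than carrying cargo, was at 21.5 and 16.4 FPKM in Cre-positive SC and 26.5 and 38.3 in Cre-negative SC (adjusted p = 1).

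Of the kinesins of cell division, Kif2c, which removes tubulin at centromeres, was called higher. It was at 17 and 8.82 FPKM in P0.5 Cre-positive SC, at 0 in both Cre-negative libraries and at 0.268 and 0.207 in retina (difference 3.73 ± 0.36, limma, adjusted p = 1.91e-05). The 7 markers of proliferating cells, Mki67, Top2a and Cdk1 among them, were all at 0 in both P0.5 Cre-positive libraries, and 1 of them was above 0 in each Cre-negative library, at 12.9 and 4.78 FPKM. Kif20b, a kinesin of cytokinesis, was at 5.39 and 0.617 FPKM in Cre-positive SC and at 0 in Cre-negative SC, but it reached 1 FPKM in 1 library only and was not tested. The other mitotic kinesin tested, Kif15, was at 0.283 and 1.57 and 0 and 0.0181 FPKM (adjusted p = 0.599).

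Taking the 32 members that passed the filter (at least 1 FPKM in 2 of the 16 SC libraries), 10 were called higher and none lower at P0.5, while 28.1% of all 5983 genes tested were called higher. The members' share was close to that of the whole table, and their median difference was 1.65, against 0.78 over all genes tested. Of the 10, Dctn6, Dync1i1, Dynlt1c and Kif2c passed the filter through the P0.5 Cre-positive libraries alone, so that a difference was built into their entry: without these libraries 28 of the members and 4716 of all genes would have entered. Astrocyte markers moved with the groups, with a summed level of 60.8 and 51.9 FPKM in Cre-positive and 15.9 and 38.3 in Cre-negative SC (4 of 6 above 0 in each Cre-positive and 3 of 6 in each Cre-negative library, Gfap and Aqp4 at 0 in all 4), and their part in the result was not tested. Microglia markers went the other way, all 5 at 0 in both Cre-positive libraries and 1 of 5 above 0 in each Cre-negative one, at 77.0 and 43.2 FPKM. The markers of inhibitory SC neurons, Gad1, Gad2 and Slc32a1, were at 0 in all 4 libraries, the oligodendrocyte markers summed to 84.7 and 86.6 FPKM against 86.2 and 48.1, and the endothelial ones to 60.9 and 27.9 against 82.6 and 46.5. Each library weighed heavily on the count of 10: it fell to 1 without replicate 1 and to 3 without replicate 2 of Cre-positive SC, and to 5 and 6 without replicates 1 and 2 of Cre-negative SC. Without any 1 of these 4 libraries the number of all genes called higher fell too, so the drop was not particular to the members. Without a Cre-positive library Dctn6, Dynlt1c and Kif2c no longer passed the filter and left the test. NOISeq at a probability of 0.7, a test that ranks genes against the noise between replicates, called 15 members higher and none lower, beside 33.5% of all genes. Its 15 held Dctn3, Dctn5, Dynll1, Kif1a, Kif5a and Kif5b in addition and left out Dynlt1c. A fit to the P0.5 libraries alone called 17, beside 59.3% of all genes.

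At the other stages limma called no motor gene between Cre-positive and Cre-negative SC, and NOISeq called a few, all but 1 of them higher without Cre. At E17.5, where 1.57% of all genes were called, limma called none of the 32 members, with none higher and 1 lower at an unadjusted p under 0.05, and NOISeq called none higher and 3 lower (Dctn2, Dynlrb1 and Kif3a), beside 5.21% of all genes lower. The member under 0.05 was Dctn1, at 0 and 0.0391 FPKM in Cre-positive and 6.4 and 1.97 in Cre-negative SC (difference -2.20 ± 0.80, adjusted p = 0.485). Replicate 1 of E17.5 Cre-negative SC, the library with the fewest estimated fragments, held 28 members at or above 1 FPKM, the most of any library, among them Dynlrb1 at 132, Klc1 at 85.1, Dctn2 at 77.8 and Kif3a at 24.4 FPKM. In replicate 2 of the same group these 4 genes were at 0. Without that replicate 2, limma called 7 members lower in Cre-positive SC, beside 13.8% of all genes. The Cre-positive libraries of E17.5 differed from each other in the same manner, with Dctn3 at 468 and 12.8, Dctn5 at 195 and 16.8 and Kif1a at 92.2 and 1.73 FPKM.

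At P7.5 limma called 0.0% of all genes and none of the members, also at an unadjusted p under 0.05, and NOISeq called Dync1h1 higher and Dctn5 lower, beside 6.6% of all genes in either direction. Dctn2, Dctn6, Dync1i1, Dynll1, Dynlrb1 and Kif5b were at 0 in both Cre-positive libraries of this stage, while Kif1b was at 74.8 and 111, Kif2a at 43.9 and 160.1 and Dync1li1 at 26 and 12.1 FPKM. In the adult 0.15% of all genes were called and none of the members, with none higher and 2 lower at an unadjusted p under 0.05, and NOISeq called 5 lower (Dctn5, Kif13a, Kif1a, Kif1c and Kif5b), beside 8.66% of all genes lower. The 2 under 0.05 were Kif1a, at 1.25 and 0.09 FPKM in Cre-positive and 11.5 and 364 in Cre-negative SC (difference -5.43 ± 2.08, adjusted p = 1), and Kif5b, at 0 and 0.124 and 0.914 and 219.7 FPKM (difference -4.28 ± 1.80, adjusted p = 1). Replicate 2 of adult Cre-negative SC supplied the high value of both, and it also held Dctn5 at 1405 and Kif13a at 446 FPKM, genes that replicate 1 listed at 0. This was the library with the fewest genes, and its oligodendrocyte markers summed to 4148 FPKM while all 8 RGC markers were at 0. In adult Cre-positive SC Dctn4 at 728 and 1322 and Kif1b at 154 and 119 FPKM were the highest motor genes in both libraries. Kif2a at 78 and 0.616, Dynlt1a at 65.4 and 16.9 and Dync1li1 at 11.6 and 71.9 FPKM differed between the 2 libraries. Kif5a was at 9.25 and 27.5 FPKM there and at 0.291 and 36.4 in Cre-negative SC.

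Across development, every member called between consecutive stages of Cre-positive SC was higher at P0.5 than at the stage before or after. From E17.5 to P0.5, 8 of the 32 members were called higher (Dctn1, Dctn2, Dctn6, Dync1i1, Dynlrb1, Dynlt1c, Dynlt3 and Kif2c) and none lower, beside 25.1% of all genes. The differences ran from 1.66 ± 0.22 (SE) for Dynlt1c to 7.11 ± 0.48 for Dctn6, with adjusted p-values in limma between 9.41e-06 and 0.0282. From P0.5 to P7.5, 10 members were called lower and none higher, beside 29.2% of all genes. These were Dctn1, Dctn2, Dctn3, Dctn6, Dync1i1, Dynll1, Dynlrb1, Dynlt1c, Kif2c and Kif5c, with changes from -1.66 ± 0.22 for Dynlt1c to -8.01 ± 2.10 for Dctn3, which stood at 1318 and 1032 FPKM at P0.5 and 0 and 19.6 at P7.5. In Cre-negative SC Dctn3 fell as well, from 453 and 311 FPKM to 0.186 and 0.406, and its interaction with Cre did not pass. The call of Dctn3 was also lost under 1 other setting. Dctn6, Dync1i1, Dynlt1c and Kif2c passed the filter through the P0.5 Cre-positive libraries alone, so that a difference was built into their entry in both steps. Both changes and the comparison with Cre-negative SC share the P0.5 Cre-positive libraries and do not count as separate evidence. The counts rested on them: the first went to 1 and the second to 1 without replicate 1, and to 2 and 3 without replicate 2, and without replicate 2 of E17.5 Cre-positive SC the first was 5. In each of these fits the number of all genes called fell too. From P7.5 to the adult, where 0.0836% of all genes were called, limma called none of the members, with 1 higher and none lower at an unadjusted p under 0.05 (Kif5a, from 0.387 and 0 to 9.25 and 27.5 FPKM, adjusted p = 1). In Cre-negative SC Kif5a was at 0 and 0.0153 FPKM at P7.5 and at 0.291 and 36.4 in the adult.

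Whether Cre-positive SC changed over time by more than Cre-negative SC was asked with the interaction of stage and Cre. Between E17.5 and P0.5, 8 members had a larger change in Cre-positive SC and none a smaller one, beside 23.9% of all genes, and between P0.5 and P7.5, 7 had a more negative change and none a more positive one, beside 18.7%. Dctn1, Dctn2, Dctn6, Dync1i1, Dynlt1c and Kif2c passed both, but Dctn2 missed the threshold in the second step without the filter, with median-ratio scaling and in each of the 8 fits that left out 1 library. The interaction of Dctn2 was 9.28 ± 2.24 (SE) in the first step (limma, adjusted p = 0.0105) and -7.19 ± 2.24 in the second (adjusted p = 0.0436), and that of Dctn1 was 6.63 ± 1.13 (adjusted p = 0.00152) and -4.45 ± 1.13 (adjusted p = 0.0163). Part of the first value came from the Cre-negative libraries, in which Dctn2 went from 77.8 and 0 FPKM at E17.5 to 0 in both at P0.5. Dynlrb1 (10.08 ± 2.44, adjusted p = 0.0106) and Dynlt3 (5.17 ± 1.53, adjusted p = 0.0286) passed in the first step, and Kif5c (-3.42 ± 0.91, adjusted p = 0.0201) in the second. Cre-negative SC also gave part of the first-step values of Dynlrb1, Dynlt3 and Dctn1. At E17.5 they were there at 132 and 0, 7.84 and 0 and 6.4 and 1.97 FPKM. At P0.5 they were at 0 and 0, 0 and 0.0853 and 0 and 0 FPKM. The first of each E17.5 pair is from the library with the fewest estimated fragments. Without replicate 1 of P0.5 Cre-positive SC no member passed either step, and without its replicate 2 the counts were 4 and 1. The first count rose to 13 without replicate 2 of E17.5 Cre-negative SC, and the second was 3 without either library of P0.5 Cre-negative SC and 4 without either of P7.5 Cre-positive SC. In these fits the number of all genes passing moved the same way as that of the members. For Dctn6, Dync1i1, Dynlt1c and Kif2c a difference was built into both steps, as only the P0.5 Cre-positive libraries carried them past the filter. Between P7.5 and the adult the interaction was called for 0.0% of all genes and for none of the members, also at an unadjusted p under 0.05.

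In retina, which holds the cell bodies of RGCs and the other retinal cells that inherit the tag, 8 to 27 of the 64 members reached 1 FPKM in a library, with 27 in replicate 2 of E17.5, 20 in replicate 2 of the adult and 13 in each P0.5 library. Apart from Dctn4, the genes with the highest values in the 8 retina libraries were Dync1li2, Dynlt1a and Kif1b, with 272 FPKM of Dync1li2 in replicate 1 of P7.5 (0.581 in its replicate 2), 159.8 of Dynlt1a in replicate 2 of P0.5 and 79.4 of Kif1b in replicate 2 of E17.5. Of the 25 members tested in retina, limma called none between E17.5 and P0.5, between P0.5 and P7.5 or between P7.5 and the adult, where it called 0.0%, 0.0735% and 0.0% of all 4080 genes. At an unadjusted p under 0.05 there was none in the first step, 2 were higher in the second (Dync1li2 and Dynlt3) and the same genes were lower in the third, following their high value in replicate 1 of P7.5. The later stages pooled, P7.5 and adult, against the earlier ones gave 0.956% of all genes and none of the members. The member under an unadjusted p of 0.05 in that comparison was Kif15, a mitotic kinesin, at 15 and 2.17 FPKM at E17.5, 3.1 and 11.1 at P0.5, 0.881 and 0.0413 at P7.5 and 0 and 0.107 in the adult, so that all 4 earlier libraries were above all 4 later ones (difference -2.55 ± 1.08, limma, adjusted p = 0.456). Other mitotic kinesins reached 1 FPKM in retina at E17.5 in replicate 2 only, with Kif22 at 8.69, Kif2c at 6.75, Kif20a at 2.15 and Kif11 at 1.39 FPKM. Klc3 and Klc4 reached 1 FPKM in retina only among the 3 sources, in replicate 2 of E17.5 (Klc3), P7.5 and adult (both), at 1.94, 4.42 and 4.67 FPKM for Klc3 and 1.08 and 1.06 for Klc4. Klc4 was not limited to retina in the separate adult libraries without run-off, with 395 reads in Cre-positive SC and 94 in retina.

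Cre-positive SC was then set against the retina of the same stage, which holds the cell bodies of RGCs and other tagged cells. The SC libraries had more rounds of PCR than the eye libraries, so source and amplification cannot be told apart in this comparison. At P0.5, 13 of the 34 members tested were called higher in Cre-positive SC and none lower, beside 26.4% of all 7193 genes, with a median of 2.82 over the members and 0.33 over all genes. The 13 comprised 4 dynactin subunits (Dctn1, Dctn2, Dctn3 and Dctn6), 2 dynein-1 chains (Dync1h1 and Dync1i1), 3 light chains (Dynll1, Dynlrb1 and Dynlt1c), Kif5c, Kif1a, Kif1b and Kif2c. Dctn3 had the largest difference, 8.28 ± 1.89 (SE), with 1318 and 1032 FPKM in SC and 2.66 and 2.83 in retina (limma, adjusted p = 0.00326), and Kif1a differed by 5.39 ± 1.78 (adjusted p = 0.0325). Kif1b differed by 4.13 ± 1.29 (adjusted p = 0.0237), but the P0.5 Cre-negative libraries were as far above retina, at 262 and 146 FPKM, and those of Dctn3 were at 453 and 311. Dctn6, Dynlt1c and Kif2c passed the filter of these 24 libraries through the P0.5 Cre-positive ones alone, so that a difference was built into their entry here too. Dctn2, Dynll1, Dynlrb1, Kif1a and Kif1b missed the threshold with any 1 of the 4 libraries left out, and Dynlrb1 also without the filter and with a pseudocount of 0.1. The count of 13 fell to 5 and 7 without replicates 1 and 2 of Cre-positive SC and to 7 and 6 without those of retina. Over all genes the number called higher fell in the same fits. Dync1h1 and Dctn1 also lost their call in some of these fits. Under the other settings Dctn1, Dctn2, Dynll1 and Kif1a each missed the threshold in 1 fit. Limma called none of the members at the other stages, where it called 1.32% (E17.5), 0.0% (P7.5) and 0.0973% (adult) of all genes. At an unadjusted p under 0.05 Dctn3 was higher and Kif15 and Kif2c lower in SC at E17.5, Kif1b was higher at P7.5 (74.8 and 111 FPKM in SC, 1.47 and 35.4 in retina) and Kif5a in the adult (9.25 and 27.5 against 0 and 0.487). Adult Cre-negative SC had 0.291 and 36.4 FPKM of Kif5a. NOISeq was not run on these comparisons, on those between stages or on the interactions.

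The members were also counted by direction of travel. Of 19 anterograde members, 6 reached 1 FPKM in each P0.5 Cre-positive SC library, 3 and 2 in the Cre-negative ones and 2 in each retina library. Of 20 retrograde members, 15 and 17 did so in Cre-positive SC, 6 in each Cre-negative library and 8 in each of retina. Over all genes, 3866 and 3788 reached that level in Cre-positive SC and 1586 and 1646 in Cre-negative SC, and the 2 directions were not tested against each other. At the other stages the Cre-positive libraries had 1 to 6 anterograde and 3 to 9 retrograde members at that level. The summed anterograde level at P0.5 was 338 and 203 FPKM in Cre-positive SC and 355 and 178 in Cre-negative SC, most of it Kif1b and Klc1, and 12.8 and 8.4 in retina. The retrograde sum without Dctn4 was 2076 and 1846 FPKM in Cre-positive SC, 501 and 595 in Cre-negative SC and 20.5 and 191 in retina. Dctn3, which was not called between the SC groups, gave 1318 and 1032 FPKM of the Cre-positive sums. It gave 453 and 311 of the Cre-negative ones, and Dynlt1a gave 159.8 of the 191 in retina. No test was run on these sums, since the members were chosen with earlier results known.

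**Figure D3:**
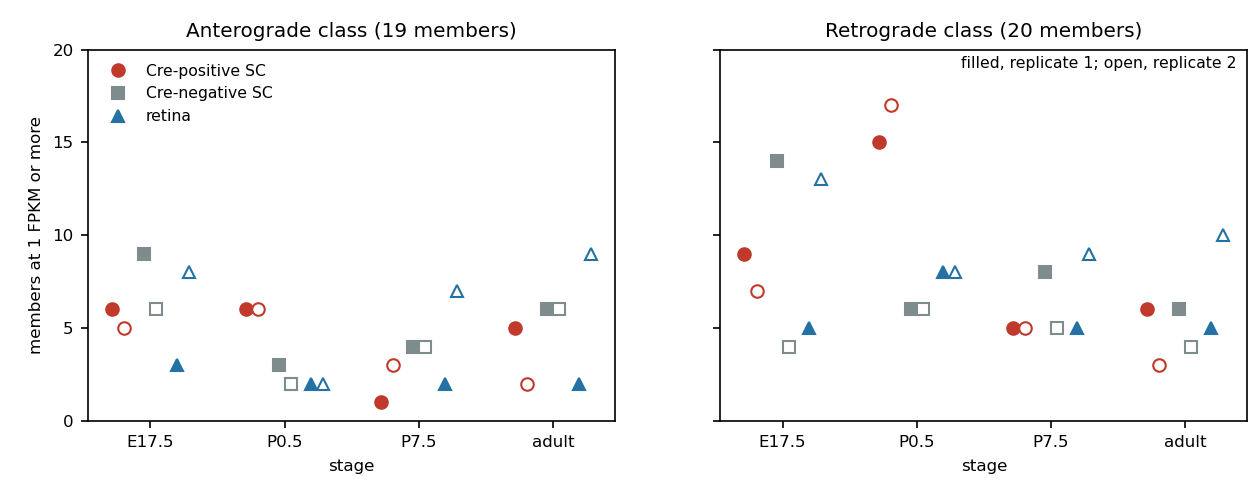
Number of the 19 anterograde and 20 retrograde motor genes at or above 1 FPKM (vertical axis) at each stage, with 1 point per library, circles for Cre-positive SC, squares for Cre-negative SC and triangles for retina. The retrograde count peaks at 15 and 17 in the P0.5 Cre-positive libraries, against 6 in both Cre-negative ones, and replicate 1 of E17.5 Cre-negative SC and replicate 2 of E17.5 retina are the next highest, at 14 and 13.

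Proteins that tie these motors to cargo or tune them were looked at as a list of 41 adaptor and regulator genes, of which 36 were above 0 FPKM in a library and 26 were tested in SC. At P0.5, 7 were called higher in Cre-positive than Cre-negative SC and 1 lower, with a median of 1.13. Of all 5983 genes tested, 28.1% were called higher and 260 genes lower, with a median of 0.78. Fez1, a kinesin-1 adaptor for vesicles of synaptic proteins, was at 759 and 348 FPKM in Cre-positive and 28.4 and 4.66 in Cre-negative SC (difference 5.32 ± 1.20, limma, adjusted p = 0.00576). The JNK-interacting scaffolds Mapk8ip3, which binds kinesin-1 and dynactin, and Mapk8ip2 were at 65 and 45 and at 216 and 89.3 FPKM in Cre-positive SC and below 0.1 in Cre-negative SC (differences 5.71 ± 0.99 and 7.03 ± 1.81, adjusted p = 0.00109 and 0.0121). Fez2, Madd, which joins Kif1a and Kif1b to Rab3 vesicles, Htt and the dynein adaptor Hook2 were the other 4. Fez2, Madd, Htt, Mapk8ip3 and Hook2 passed the filter through the P0.5 Cre-positive libraries alone, so that a difference was built into their entry. Trak1, which couples mitochondria to kinesin-1 and dynein, went the other way, at 0 in both Cre-positive libraries and at 32.5 and 14.5 FPKM in Cre-negative SC (difference -4.51 ± 0.52, adjusted p = 5.73e-05). It would not have passed the filter without these P0.5 Cre-negative libraries, so that a difference was built into its entry as well.

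A few motor genes followed the replicate number rather than the group. Dynlt1a was high in replicate 1 and low in replicate 2 of all 3 sources at E17.5 (79.6 and 2.97 FPKM in Cre-positive SC, 184 and 0.361 in Cre-negative SC and 120.2 and 1.05 in retina) and at P7.5, and the reverse at P0.5 (0.218 and 59.7, 2.42 and 107 and 2.19 and 159.8 FPKM). Kif7, a kinesin of the cilium tip in hedgehog signalling, did the same, with 1.61 and 21.4, 0.408 and 19.5 and 1.42 and 11.6 FPKM at P0.5 and 17.8 and 2.31, 71.2 and 4.45 and 17.6 and 0.154 at P7.5. Klc1 was low in replicate 1 and higher in replicate 2 of all 3 sources at P7.5 (0 and 11.4, 0 and 4.96 and 0.228 and 13.6 FPKM). Genes over 4-fold apart on FPKM + 1 in the same sense in all 3 sources were counted. Only genes at 1 FPKM or more in at least 1 library of each source of the stage entered. At E17.5 this gave 2 of 16 members (10.3% of all genes). The same count was 2 of 10 (4.72%) in the P0.5 libraries, 3 of 10 (14.6%) in those of P7.5 and 0 of 8 (1.14%) in the adult ones. The labels do not say what the replicate number stands for, and it cannot be told apart here from a batch of libraries.

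**Figure D4:**
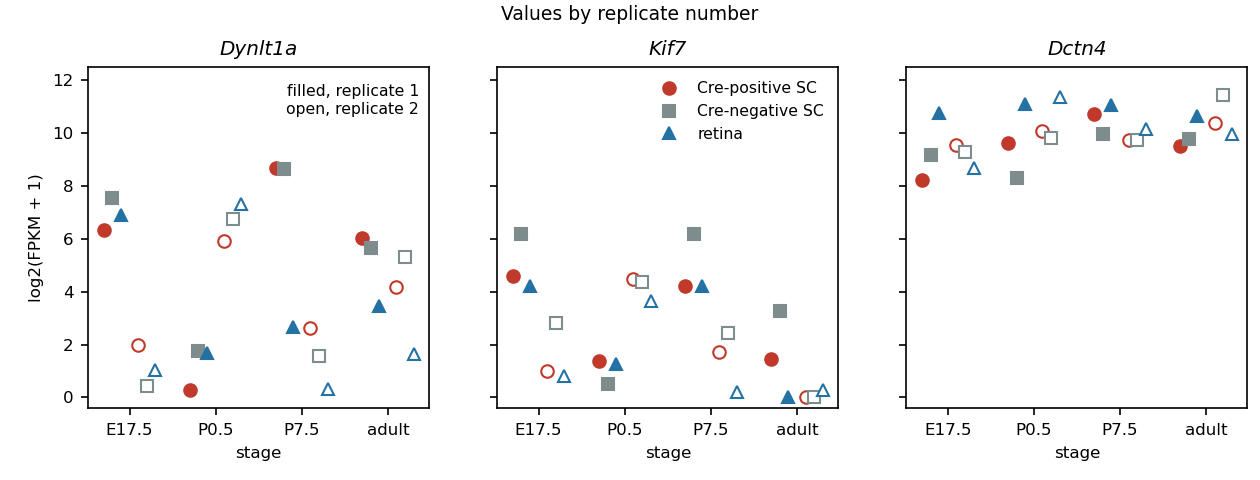
Levels of Dynlt1a, Kif7 and, for contrast, Dctn4 at each stage (horizontal axis), as log2(FPKM + 1), in replicate 1 (filled) and replicate 2 (open) of the 3 sources. For Dynlt1a and Kif7 the 3 filled points lie above the 3 open ones at E17.5 and below them at P0.5, and at P7.5 the filled point of each source is above its open one, whereas the points of Dctn4 lie closer together.

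Ribosome run-off asks which mRNAs leave the precipitate when moving ribosomes are let off. It was done on adult tissue with 1 library per condition, so that the counts below have no replicate check and no p-value, and their exact 95% intervals cover counting error only. The SC libraries held 3262914 reads on genes without and 349395 with run-off (10.7%), and the retina libraries 4686284 and 315009 (6.72%). Reads on motor genes went from 29483 to 2815 in SC, which was 0.904 and 0.806% of all reads, and from 28840 to 2842 in retina, 0.615 and 0.902%. Of the 34 members with a read in either SC library, 28 (82.4%) had fewer reads with run-off, beside 84.9% of all genes, and in retina 35 of 37 (94.6%), beside 92.1%. Since nearly every gene had fewer reads in a smaller library, the counts were also taken relative to the library total (CPM). Then 61.8% of the members were lower in SC and 51.4% in retina, with no share over all genes to set beside them. Of members with at least 10 reads without run-off, 14 of 24 (58.3%) fell by at least 2-fold in CPM in SC, beside 74.7% of all genes, and 14 of 33 (42.4%) in retina, beside 63.4%.

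In SC the 3 motor mRNAs with the most reads, and Kif5b, stayed close to the share of the library, and others lost most of theirs. Kif1b went from 11617 to 1091 reads, so that 9.39% (exact 95% interval 8.82 to 9.99%) remained, and Dctn4 from 7685 to 997, 13% (exact 95% interval 12.1 to 13.9%). Dync1li1 went from 2240 to 310 reads and Kif5b from 531 to 79. The 4 had a ratio of CPM with over without run-off of 0.877 (interval 0.824 to 0.933) for Kif1b, 1.21 (interval 1.13 to 1.29) for Dctn4, 1.29 (interval 1.14 to 1.46) for Dync1li1 and 1.39 (interval 1.08 to 1.76) for Kif5b. By contrast Dctn5 went from 1625 to 10 reads, Dctn3 from 859 to 1, and Dctn1 from 99 to 2. Kif1a went from 983 to 3 reads and Kif5a from 984 to 10, with CPM ratios of 0.0285 (interval 0.00587 to 0.0835) and 0.0949 (interval 0.0454 to 0.175). The dynein heavy chain Dync1h1 went from 293 to 1 read, a CPM ratio of 0.0319 (interval 8.04e-04 to 0.179). Of the light chains, Dynll2 went from 695 to 9 reads, a CPM ratio of 0.121 (interval 0.0551 to 0.231). Among kinesin light chains, Klc1 went from 515 to 11 reads and Klc4 from 395 to 1.

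Some members were not seen after run-off in SC. Kif3a, with 347 reads without run-off, had none with it, at least 116-fold fewer reads and at least 12.4-fold lower CPM, taking 3 reads as the limit that a count of 0 allows in a library. Kif5c (156 reads) and Kif21a (90 reads) also had none, at least 5.57-fold and 3.21-fold lower CPM, and Kif22 went from 12 to 0 reads, too few to set a limit on the CPM. Against the trend, Kif1c had more reads with run-off, going from 11 to 71 reads and Dync1i1 from 53 to 109, a CPM ratio of 60.3 (interval 31.7 to 126) and 19.2 (interval 13.7 to 27.2). Kif2a had 203 and 87 reads, a CPM ratio of 4 (interval 3.08 to 5.17), so that its share of the library was higher after run-off. The remaining members with at least 10 reads, Kif3c (30 and 6 reads), Dynll1 (23 and 1), Dynlt1a (12 and 2) and Dync1li2 (11 and 1), had intervals of the CPM ratio that included 1.

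Retina gave another order. Kif1b went from 9318 to 1360 reads, a CPM ratio of 2.17 (interval 2.05 to 2.3), Dctn4 from 8863 to 635, a ratio of 1.07 (interval 0.982 to 1.16), and Kif2a from 4687 to 209, a ratio of 0.663 (interval 0.575 to 0.762). Dctn5, which nearly vanished in SC, kept its share in retina with 1121 and 86 reads, a ratio of 1.14 (interval 0.906 to 1.42). Kif5b, which kept its share in SC, went from 229 to 0 reads in retina, at least 5.13-fold lower CPM, and Dync1i1 from 105 to 0, at least 2.35-fold lower. Kif1a had 120 and 48 reads and Dync1h1 23 and 21, CPM ratios of 5.95 (interval 4.17 to 8.38) and 13.6 (interval 7.15 to 25.7), where both had lost most of their share in SC. The opposite courses of Dctn5, Kif5b, Dync1i1, Kif1a and Dync1h1 were picked out after their counts were seen, and the tissues were not tested against each other, since each condition is 1 library. Summed over the members, 8.13% of anterograde and 10.7% of retrograde reads were kept in SC, and 14.9% and 7.61% in retina. These sums hang on the most abundant genes, as without Kif1b the anterograde share kept in SC was 4.5% and without Dctn4 the retrograde share was 7.71%.

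**Figure D5:**
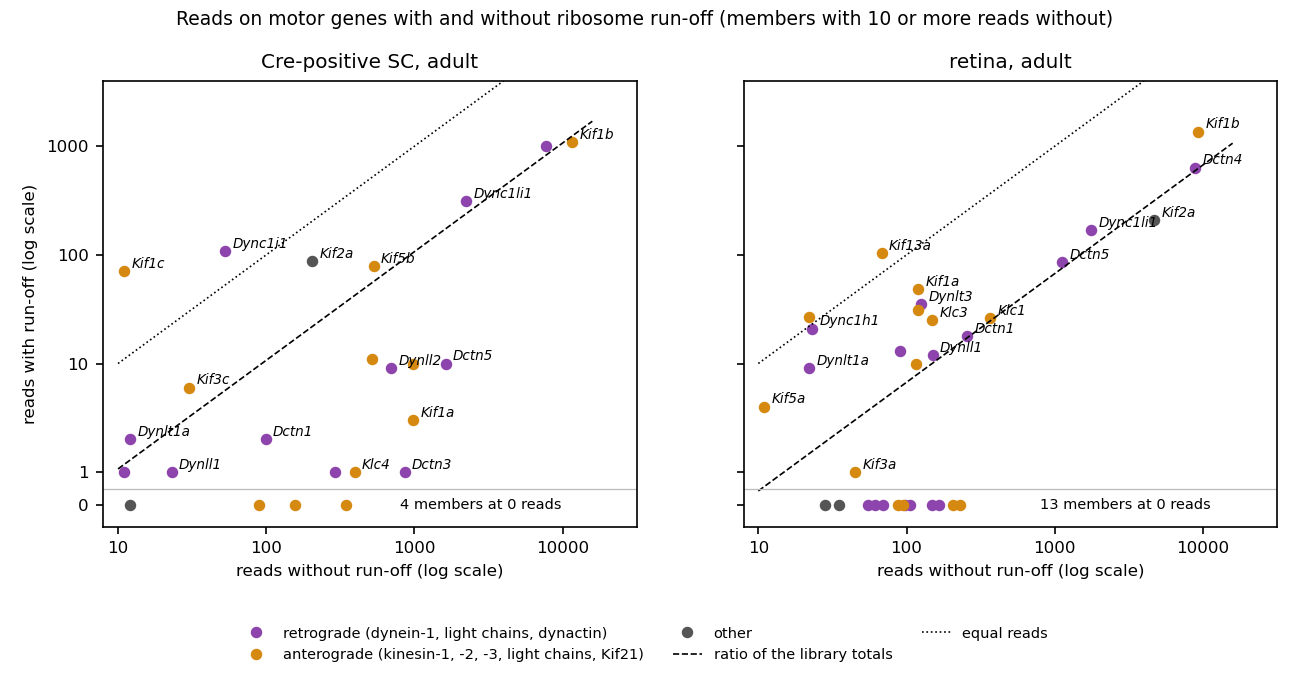
Reads with run-off (vertical axis, with a strip for 0) against reads without run-off (horizontal axis), both on log scales, for each motor gene with at least 10 reads without it, in adult Cre-positive SC and adult retina. The dashed line marks the ratio of the library totals (10.7% in SC and 6.72% in retina): in SC Kif1b and its left neighbour Dctn4 lie near it, Kif1a, Dctn3 and Klc4 far under it, and Kif1c and Dync1i1 far over it.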

How the data were processed

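Per the submitters' processing notes, mm10 was the genome and TopHat2 2.0.12 the aligner. For the 24 libraries of stage, Cre and retina the authors supplied FPKM made with Cufflinks 2.2.1, which are scaled for transcript length and library size. The run-off files are the authors' read count per gene for 4 libraries, made with HTSeq 0.6.1p1 and not normalized, and the strand setting is not given in the sources used here, so reads of overlapping and antisense genes may be mixed.

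Samples were grouped by their labels. FPKM were compared as log2(FPKM + 1) with limma 3.58.1 in R 4.3.3 (mean-variance trend, robust), in 1 fit each over the 16 SC, the 8 retina and all 24 libraries, on genes with at least 1 FPKM in 2 libraries. Benjamini-Hochberg adjustment of the two-sided p-values ran over all genes of a contrast, and calls were made at 0.05. In all, 4 genes with a missing entry were left out. A 0 in these files can be a failed estimate. Run-off reads were compared with exact 95% intervals of the ratio of 2 counts, without a test. Depth was estimated from the spacing of the low FPKM values of single-transcript genes, and limits the precision of low values.

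The alternatives were a pseudocount of 0.1, no filter, median-ratio scaling, a fit to 1 stage, a replicate block, leaving out each library and NOISeq (probability 0.7), written anew from its description and run on FPKM multiplied by transcript length. The fits were tested on simulated data. Sequences came from GRCm38 with GENCODE, by Python 3.11.15.

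The members and gene lists were chosen with earlier results of these data known. Values per library were to be given for members past the threshold in a comparison of Cre or its interaction, for dynein-1 chains, dynactin, kinesin-1 and its light chains, Kif1a and Kif1b, and for the run-off for members with at least 10 reads in SC without run-off. Other members are named for values that stand out, and genes outside the set come from the adaptor and marker lists.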

Additional observations from a re-analysis of the deposited data

Results flagged for a closer look

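The members listed here changed between stages by different amounts in Cre-positive and Cre-negative SC, by limma's interaction of stage and Cre at an adjusted p under 0.05. Values are interactions on the log2(FPKM + 1) scale. From E17.5 to P0.5 they were 10.08 for Dynlrb1, 9.28 for Dctn2, 7.04 for Dctn6, 6.63 for Dctn1, 5.17 for Dynlt3, 3.93 for Dync1i1, 3.69 for Kif2c and 1.66 for Dynlt1c. From P0.5 to P7.5 they were -7.19 for Dctn2, -7.04 for Dctn6, -4.45 for Dctn1, -3.93 for Dync1i1, -3.73 for Kif2c, -3.42 for Kif5c and -1.66 for Dynlt1c. Both steps use the same P0.5 libraries, and for Dctn6, Dync1i1, Dynlt1c and Kif2c only those of P0.5 Cre-positive SC carried the gene past the filter. Part of the first-step values of Dynlrb1, Dctn2, Dctn1 and Dynlt3 came from Cre-negative SC, where they were higher in replicate 1 of E17.5 than at P0.5. How reads were divided between Dynlt1c and its copies with the same coding sequence is uncertain.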

How the results depend on the processing

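With a pseudocount of 0.1, no filter or median-ratio scaling, every count of called members stayed within 1.5 times its value or at 0, except that 1 member was called between Cre-positive SC and retina at E17.5 without the filter. Median-ratio scaling moved the median over all genes by over 0.1 for the step from E17.5 to P0.5 in Cre-positive SC (0.69 to 0.57) and in retina (-0.50 to -0.39) and between Cre-positive SC and retina at P0.5 (0.33 to 0.48), where 8, 0 and 13 members were called under either scaling. NOISeq called 3 members in the E17.5 comparison of Cre, 2 in that of P7.5 and 5 in that of the adult, where limma called none, and a fit to P0.5 alone called 17 members. The cause was not tested. No call of a named gene changed direction under any of these. Single calls were mainly lost by leaving out a library: 110 of 252 such values missed the threshold, against 8 of 56 with a pseudocount of 0.1, 5 without the filter and 1 with median-ratio scaling.

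Leaving out 1 library at a time, the members called between Cre-positive and Cre-negative SC ran from 0 to 7 (E17.5), 1 to 6 (P0.5), 0 to 0 (P7.5) and 0 to 1 (adult). Within Cre-positive SC they ran from 1 to 7 between E17.5 and P0.5, 1 to 8 between P0.5 and P7.5 and 0 to 0 thereafter, and for the interactions of the same steps from 0 to 13, 0 to 6 and 0 to 0. In retina they ran from 0 to 0 (E17.5 to P0.5), 0 to 1 (P0.5 to P7.5, 1 without replicate 2 of P7.5), 0 to 1 (P7.5 to adult, 1 without the same library) and 0 to 0 (pooled stages), and against retina from 0 to 1 in the E17.5 comparison, 5 to 7 in that of P0.5 and 0 to 0 in both later ones. The adult comparison of Cre gave 1 without replicate 1 of Cre-negative SC. A group left with 1 library is assumed to vary like the others. Wherever the count of members called in a comparison fell in such a fit, the count of all genes called in that direction fell too. At P0.5 Dynlrb1, Dynlt3 and Dync1h1 lost their call between Cre-positive and Cre-negative SC in each of 4 such fits. Dctn2 and Kif5c lost theirs in 3 of these fits, and Dctn1 in 1.

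The replicate numbers were not taken as pairs. The deviations of same-numbered Cre-positive and Cre-negative libraries from their group means correlated over genes at 0.363, 0.429, 0.308 and 0.062 in order of stage, and over the members at 0.572, 0.745, 0.646 and 0.355. With a replicate block 11 members were called at P0.5, 8 and 11 between stages, 8 and 6 for the interactions and 15 against retina at P0.5. Of all 5983 genes it called 1777 higher at P0.5, and 1507 higher and 1796 lower between stages. For the interactions it called 1492 higher and 1162 lower, and against retina at P0.5 1913 of 7193 higher. The block ended the calls of Dync1h1 between the SC groups at P0.5, of Dctn2 in the second interaction and of Dynlrb1 against retina at P0.5. Over all genes the block moved the comparison of Cre at E17.5 from 28 higher and 66 lower to 4 and 15, and in the adult from 5 and 4 to 0 and 0 (limma, with 128 and 130 at an unadjusted p under 0.05).

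In the run-off experiment, 61.8% of the members in SC were lower relative to the library total and 61.8% after median-ratio scaling, against 82.4% by reads, and in retina 51.4% and 70.3%, against 94.6%. These shares move because the scalings take out the smaller size of the run-off libraries. Of members with at least 10 reads, 91.7% had fewer reads in SC and 93.9% in retina. Neither these shares nor the scaled ones have a share over all genes beside them, so they do not set the members apart. Low depth limits the adult SC libraries, which held an estimated 534147 to 2674910 fragments.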
